A study of Caenorhabditis elegans with 8 samples.

Results

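Worms of the kin-3 genotype cultured with 500 µM IAA (indole-3-acetic acid, an auxin) were compared with WT worms, for which no IAA is recorded. The comparison rests on 4 of the 8 small RNA libraries of the series, 2 for each group. All 9742 listed piRNAs were taken as members, with no selection on their values. RNA came from whole Caenorhabditis elegans worms. The kin-3 genotype and the IAA occur only together, so an effect of the genotype and one of IAA cannot be told apart. The labels give neither the allele, the stage nor the age of the worms. The other 4 libraries, 2 from prde-1 worms and 2 from prg-1 worms, also have no IAA recorded. They entered the fit for single piRNAs and are given below only beside kin-3 values. Levels are in RPM, reads scaled to 1e6 of a library total, and those totals were 1342764 and 913321 reads for WT against 341001 and 562081 for kin-3.

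piRNAs of worms, also called 21U-RNAs, are germline small RNAs 21 nt long that begin with U and guide the Piwi protein PRG-1 to foreign and self transcripts. Most are transcribed one by one from short genes gathered in clusters on chromosome IV, where the upstream sequence transcription complex, which includes PRDE-1, SNPC-4, TOFU-4 and TOFU-5, acts at their promoters. The precursors are then trimmed and loaded onto PRG-1. Casein kinase II, whose catalytic subunit is encoded by kin-3, phosphorylates serines and threonines of many proteins, and the series asks whether this kinase promotes piRNA production. Auxin is widely used in worms to deplete proteins that carry a degron tag; whether kin-3 carried one is not given in the labels.

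Nearly the whole piRNA population was missing from the kin-3 libraries. At the mean WT level of 13182 ± 205 RPM (SD, n = 2), the 2 kin-3 libraries would have held 4495 and 7409 piRNA reads; 82 and 117 were found. The listed piRNAs summed to 13327 and 13037 RPM in the WT libraries and to 240 and 208 RPM in the kin-3 libraries, so that the groups did not overlap. The pooled level was 59.9-fold lower in kin-3 (exact 95% counting interval 52.1 to 69.3). Without 21ur-9719, the locus with most kin-3 reads, it was 92.4-fold lower (77.7 to 111). With 2 libraries against 2, the exact two-sided permutation test cannot give a p under 0.33, which it gave for the total and for the number of piRNAs with a read. In whole worms, fewer germ cells and less piRNA per cell cannot be told apart, and the table lists no RNA other than piRNAs that could mark the germline.

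The number of different piRNAs was smaller as well. Each kin-3 library held reads of 36 piRNAs. WT libraries thinned to 341001 reads, the total of kin-3 replicate 1, would hold 1885 and 1896 piRNAs, and thinned to 562081 reads, the total of kin-3 replicate 2, they would hold 2505 and 2516. The lists of loci also overlapped less between libraries. Of the 36 piRNAs in either kin-3 library, 9 (25.0%) were also read in the other, whereas 59.0% of those in WT replicate 1 were read in WT replicate 2 and 69.9% the other way round. These shares depend on depth and on the number of reads per locus. Over both groups, 4733 listed piRNAs had reads in WT only, 54 in WT and kin-3, 9 in kin-3 only and 4946 in neither.

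**Figure D1:**
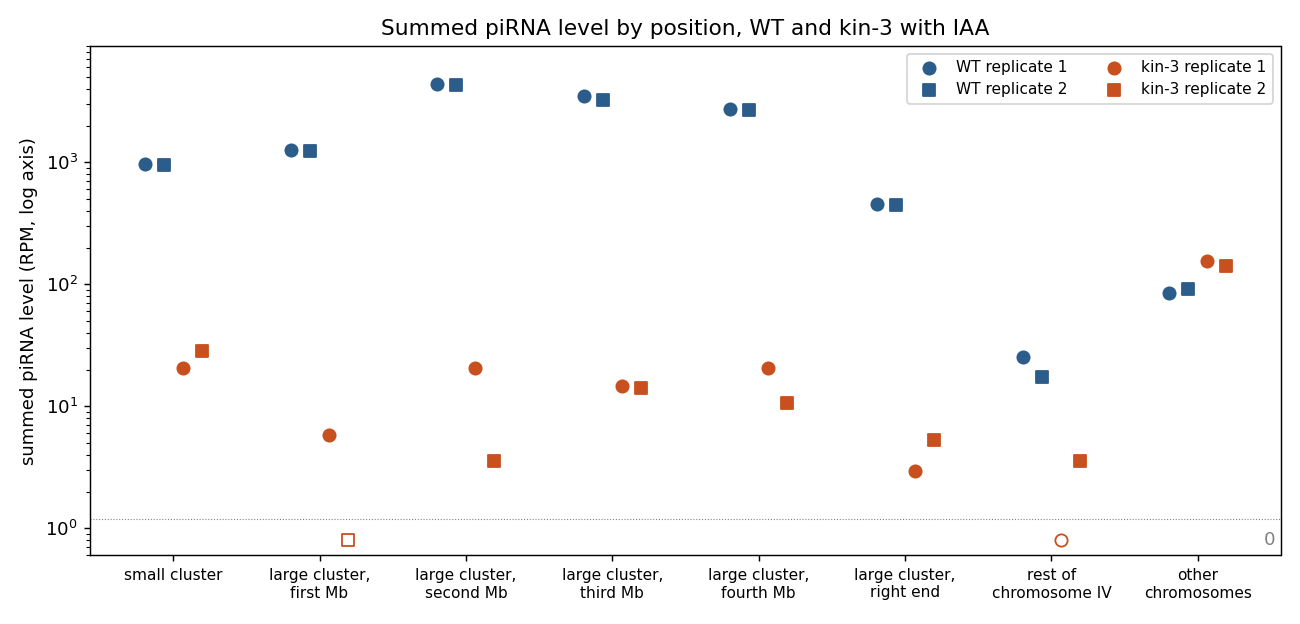
Summed piRNA level of each of the 4 libraries (y axis, RPM, log axis) in 8 position groups (x axis; the steps of the large cluster start at 13 Mb); blue marks WT, orange marks kin-3 with IAA, circles replicate 1, squares replicate 2, and open symbols at the bottom a level of 0. WT libraries lie far above kin-3 libraries in every group of the 2 clusters, and kin-3 libraries lie above WT only on the other chromosomes.

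The loss lay on chromosome IV. The large cluster, here chromosome IV from 13 Mb (positions in WBcel235), stood at 12255 and 11973 RPM in WT and at 64.5 and 33.8 RPM in kin-3. Its pooled level was 267-fold lower (95% counting interval 197 to 373). The small cluster at 4.5 to 7 Mb stood at 961 and 956 RPM in WT and at 20.5 and 28.5 RPM in kin-3, but 16 of its 23 kin-3 reads came from 21ur-1430, which lies inside a microRNA hairpin. With that locus the small cluster was 37.6-fold lower than WT (25.0 to 59.5), an interval below that of the large cluster. Without it the small cluster stood at 14.7 and 3.56 RPM in kin-3, 122-fold lower than WT (59.3 to 305). The latter interval overlaps that of the large cluster. A difference between the clusters was not tested. The rest of chromosome IV, with 103 listed loci, stood at 25.3 and 17.5 RPM in WT and at 0 and 3.56 RPM in kin-3, and 1 locus, 21ur-15630, held both of its kin-3 reads.

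Within the large cluster every step of 1 Mb was depleted. The pooled ratio of WT to kin-3 was 565 at 13 to 14 Mb (95% counting interval 156 to 4668), 436 at 14 to 15 Mb (230 to 954), 235.5 at 15 to 16 Mb (138 to 442), 188 at 16 to 17 Mb (109.7 to 353) and 101 from 17 Mb on (39.5 to 373). The point values descend along the chromosome, yet the intervals of all 5 steps overlap and rest on 2 to 13 kin-3 reads each. From left to right, kin-3 replicate 1 stood at 5.87, 20.5, 14.7, 20.5 and 2.93 RPM and replicate 2 at 0, 3.56, 14.2, 10.7 and 5.34 RPM. The WT means of the same steps were 1248, 4347, 3371, 2700 and 449 RPM. Set against these WT means, neither kin-3 library alone gave ratios that descend at every step. No order of the steps is read from these values.

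**Figure D2:**
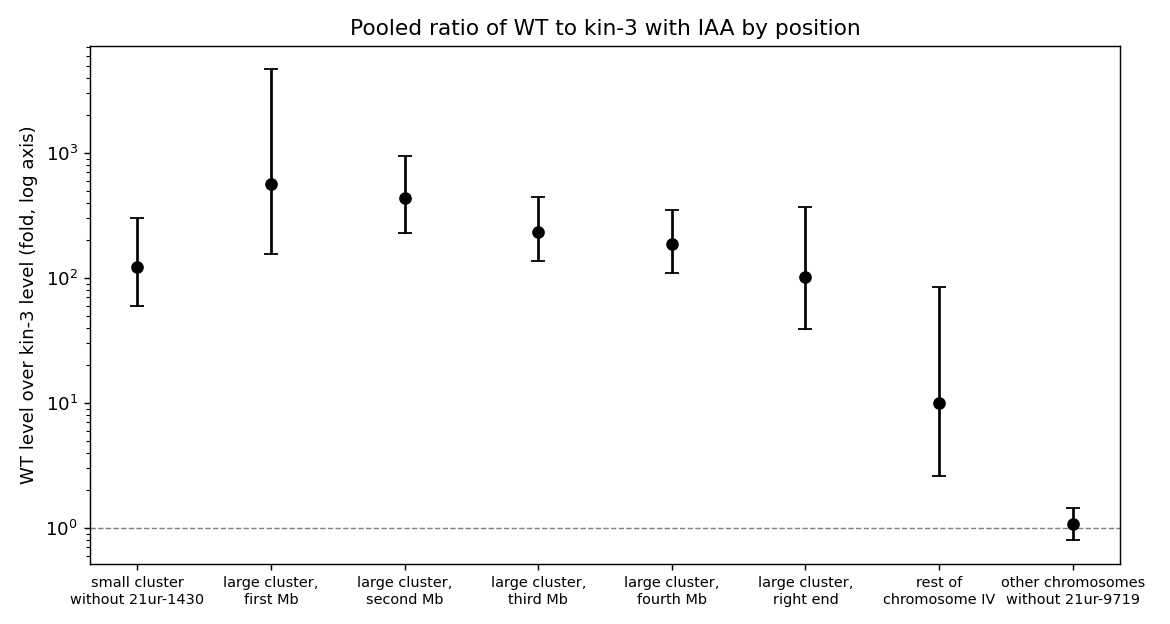
Pooled WT level divided by pooled kin-3 level (y axis, fold, log axis) in 8 position groups (x axis; the small cluster without 21ur-1430, other chromosomes without 21ur-9719), with exact 95% counting intervals as bars; the dashed line marks equal levels. The 6 groups of the clusters lie between 101 and 565, and the other chromosomes lie at 1.07 with an interval that spans 1.

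By strand and by host gene, the large cluster was lower in every class, and the intervals of the classes overlapped. Its plus-strand piRNAs were 281-fold lower (95% counting interval 178 to 475) and its minus-strand piRNAs 257-fold lower (171 to 405). Loci outside coding genes were 291-fold lower (195 to 454) and those in coding introns 265-fold lower (158 to 485). Within introns, piRNAs in the sense of the host were 272-fold lower (125 to 741) and antisense ones 260-fold lower (132 to 604). The 245 loci in coding exons were 89.3-fold lower (30.4 to 434), on 3 kin-3 reads. The 2 kin-3 libraries differed from each other on the minus strand, with 17 reads (49.9 RPM) in replicate 1 and 6 reads (10.7 RPM) in replicate 2, a ratio of 4.67 (1.76 to 14.5). On the plus strand they stood at 14.7 and 23.1 RPM, a ratio of 0.634 (0.177 to 1.89).

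Single piRNAs were tested with limma on log2(RPM + 1), a scale that understates the change of low piRNAs. Of 695 piRNAs averaging 1 RPM or more across the 8 libraries, 680 fell in kin-3 (97.8% of those tested) and 2 rose (0.288%), at a Benjamini-Hochberg adjusted p under 0.05; 13 passed in neither direction. Of the 695, 682 passed the filter only through their WT reads, so a fall was the direction the filter favoured, and these counts do not describe all 9742 listed piRNAs. The median log2 difference was -3.06. Both kin-3 values lay under both WT values for 683 of them (98.3%) and above for 2 (0.288%), a separation that the filter favours in the same way. Depth limits what this says of each locus, since 663 of the 695 had no kin-3 read. For 566 (81.4%) the 95% counting interval of the pooled ratio lay above 1, which takes at least 11 WT reads where kin-3 has none. When edgeR's quasi-likelihood test was run on the recovered reads of the 4 WT and kin-3 libraries alone, 161 of 1377 piRNAs were called lower (11.7%) and 1 higher (0.0726%). All 161 were among the 680, with WT levels of 11.06 RPM and above. The count thus depends on the fit, of which 21 alternatives were run. Without WT replicate 1 or 2, limma called 389 of 410 and 375 of 398 lower. edgeR over all 8 libraries called 675 lower (97.1%) and 2 higher (0.288%). With the replicate number added as a block, that fit called only 125 of the 695 lower and 1 higher. limma on WT and kin-3 alone called 1203 of 1377 lower (87.4%) and 3 higher (0.218%), and without a filter 2214 of 4878 lower (45.4%) and 2 higher (0.041%). edgeR without a filter called 448 lower (9.18%) and 2 higher (0.041%). Libraries at 0 add no spread to a fit, so p-values can be too small for single piRNAs. This holds for prde-1 and prg-1 in a fit over all 8. It also holds for kin-3, without a read at 663 of the 695, and so for limma on WT and kin-3 alone. On simulated data limma called unchanged piRNAs more often than edgeR. Those data left most piRNAs at the WT level in kin-3, unlike these libraries, so they give no error rate for the calls here.

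The 10 largest falls all left no kin-3 read, and were at least 19.5- to 60.7-fold lower against the floor given next. 21ur-6307, outside coding genes on the minus strand (IV 14577635 to 14577655), had 459 WT reads, 211 and 193 RPM, and none in kin-3. Against a floor of 3 reads of the pooled kin-3 total (3.32 RPM), it was at least 60.7-fold lower (log2 difference -7.66, SE 0.34, limma adjusted p = 5.5e-06). 21ur-2934 (13948777 to 13948797, minus strand, antisense in an intron of Y37A1A.4) stood at 96.1 and 90.9 RPM in WT and at 0 in kin-3, at least 28.1-fold lower. 21ur-2741, in the sense of the potassium channel gene egl-23 and within its intron, stood at 70.7 and 71.2 RPM in WT and at 0 in kin-3. 21ur-3502, antisense in an intron of noah-2, a gene of the embryonic sheath, stood at 67.0 and 62.4 RPM in WT and also had no kin-3 read. These loci were chosen for the size of the fall and for groups that do not overlap, so the separation is no result of its own.

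The piRNA with the highest WT mean fell in each position group of both clusters. In the small cluster this was 21ur-5083 (5980165 to 5980185, minus strand, antisense in an intron of the ankyrin gene unc-44), at 71.5 and 40.5 RPM in WT and 0 in kin-3 (log2 difference -5.78, SE 0.26, limma adjusted p = 5.7e-06). At 15 to 16 Mb it was 21ur-7986, at 63.3 and 77.7 RPM in WT, and at 16 to 17 Mb 21ur-2822, at 90.9 and 95.3 RPM, both without a kin-3 read. From 17 Mb on it was 21ur-13680 (17029029 to 17029049, plus strand, antisense to part of a coding exon of the nuclear receptor gene nhr-229). It was the one piRNA among the 10 highest WT means with kin-3 reads, at 67.8 and 72.3 RPM in WT and at 0 and 3.56 RPM in kin-3 (log2 difference -5.06, SE 0.69, limma adjusted p = 8.3e-04). On the rest of chromosome IV it was 21ur-9174, in an intron of nhr-105, whose 8 WT reads are too few to show a difference from 0 kin-3 reads. 21ur-1 had no read in WT or in kin-3.

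**Figure D3:**
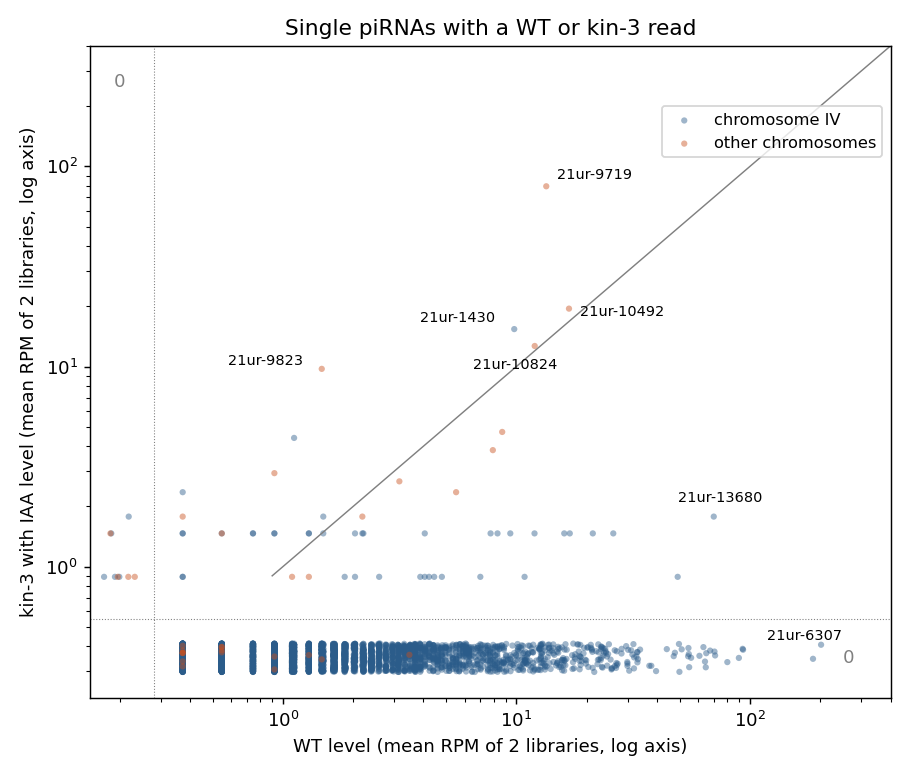
Mean level of each piRNA that has a WT or kin-3 read, in WT (x axis, RPM, log axis) and in kin-3 with IAA (y axis, RPM, log axis), with 2 libraries per group; blue points lie on chromosome IV, orange points on other chromosomes, the line marks equal levels, and points beyond the dotted lines are at 0 and spread sideways for legibility. Most points lie in the strip at 0 in kin-3, 21ur-9719 and 21ur-9823 lie above the line, and 21ur-10492 and 21ur-10824 lie close to it.

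The level kept in kin-3 followed no order of WT abundance when the 695 tested piRNAs were split into 5 groups of 139 by their WT mean. From the rarest to the most abundant group, 130, 139, 137, 136 and 138 piRNAs fell, against 97.8% of all tested. Since nearly all passed the filter through WT and the groups are cut on the WT mean, nothing is read from these counts. The level kept in kin-3 was 5.20%, 0.299%, 1.14%, 6.74% and 0.620% of WT. In the fourth group 21ur-9719, 21ur-1430 and 21ur-10824 held 70, 16 and 11 of the 100 kin-3 reads. In the fifth, 21ur-10492 held 18 of 25. Because of these loci, and of the cut on the WT mean, no relation to WT abundance is read from these levels. The lowest group includes piRNAs that passed the filter through libraries other than WT.

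In the large cluster alone, groups set by the reads of WT replicate 1 gave an order that was only partly kept in other groupings. These groups were joined from finer ones after their values were seen, and they are a description. Relative to WT replicate 2, kin-3 kept 0.840% (95% counting interval 0.519% to 1.29%) of the 2506 piRNAs with 1 to 4 reads, 0.301% (0.144% to 0.553%) of the 623 with 5 to 19 reads, and 0.153% (0.0559% to 0.332%) of the 148 with 20 reads or more. The 4741 piRNAs with no read in WT replicate 1 kept 0.381% (0.104% to 0.978%), which does not continue the order. With the WT libraries exchanged the shares of the 3 groups were 0.510% (0.285% to 0.842%), 0.215% (0.0928% to 0.424%) and 0.131% (0.0356% to 0.335%), with overlapping intervals. Kin-3 replicate 2 then stood at 0.382%, 0.130% and 0.157%, out of order. In the first grouping prde-1 worms, at 0.267%, 0.149% and 0.0524%, and prg-1 worms, at 0.649%, 0.228% and 0.165%, descended as well against the same WT library.

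The 199 reads that kin-3 kept were distributed unlike those of WT. In kin-3, 3 loci were enough for 50% of the piRNA reads of each library, against 307 and 326 loci in WT. These numbers of loci depend on depth, with 82 and 117 piRNA reads in kin-3 against 17895 and 11907 in WT. WT was not thinned for them. Loci on chromosomes other than IV gave 0.643% and 0.697% of the piRNA reads in WT and 64.6% (exact 95% interval 53.3% to 74.9%) and 68.4% (59.1% to 76.7%) in kin-3. The 4 loci with most kin-3 reads, 21ur-9719, 21ur-10492, 21ur-1430 and 21ur-10824, held 115 of the 199 reads, 52.4% and 61.5% in the 2 kin-3 libraries, against 0.402% and 0.386% in WT. At the other end, 46 of the 63 loci with a kin-3 read had a single one. The large cluster had kin-3 reads at 36 loci, none above 3 reads, and 34 of these loci were also read in WT.

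The summed level of loci off chromosome IV was not lower in kin-3. These 109 listed loci summed to 85.6 and 90.9 RPM in WT and to 155 and 142 RPM in kin-3, and both kin-3 values lay above both WT values (pooled ratio of kin-3 to WT 1.68, 95% counting interval 1.34 to 2.10). Without 21ur-9719 they summed to 75.2 and 74.5 RPM in WT and to 67.4 and 71.2 RPM in kin-3, a ratio of 0.931 (0.686 to 1.25). The higher sum thus rests on this locus. Of the 63 kin-3 reads left without it, 21ur-10492 held 18, 21ur-10824 held 11 and 21ur-9823 held 9. The sum thus rests largely on few loci and does not describe each of the others. Of the 109 loci, 75 had no read in either group, and 12 were tested, of which 1 fell and 2 rose against 97.8% and 0.288% of all tested. Of the 12, 3 had a WT mean under 1 RPM and passed the filter through other libraries, so this count does not describe all 109.

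Both rises lay antisense to exons of long intergenic noncoding RNAs. 21ur-9719, opposite a linc-22 exon (X 9072394 to 9072414, minus strand), stood at 10.4 and 16.4 RPM in WT and at 88.0 and 71.2 RPM in kin-3. Both kin-3 values were above both WT values, on 70 reads against 29 (pooled ratio 6.03, 95% counting interval 3.86 to 9.64; log2 difference 2.51, SE 0.27, limma adjusted p = 3.0e-04). Its call ended without the filter on low values (limma adjusted p = 0.0768), and adjusted p spanned 1.8e-11 to 0.0768 over 21 alternatives. 21ur-9823, opposite a linc-24 exon (III 1371141 to 1371161, minus strand), stood at 0.745 and 2.19 RPM in WT and at 8.80 and 10.7 RPM in kin-3 (log2 difference 2.18, SE 0.34, limma adjusted p = 0.0015). This is 9 reads against 3 (pooled ratio 7.49, 1.87 to 43.0). Its call ended without WT replicate 1 (limma adjusted p = 0.163) and with edgeR on the WT and kin-3 libraries alone (0.0573) or with the replicate block (0.157); adjusted p spanned 6.5e-04 to 0.163 over 20 alternatives.

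The same annotation did not bring a rise everywhere. Of the 8 listed loci antisense to a lincRNA exon, 3 were not read in WT or kin-3. 21ur-9127, antisense to linc-134 and the one of the 8 on chromosome IV, fell, from 11.2 and 7.66 RPM in WT to 2.93 and 0 RPM in kin-3 (limma adjusted p = 0.0142). 21ur-8285, antisense to linc-11, stood at 5.21 and 1.09 RPM in WT and at 0 and 5.34 RPM in kin-3, with no separation of the groups. 21ur-13684, antisense to exons of linc-59 and of a pseudogene, had no WT read and a single kin-3 read. The summed level of the 8 was 27.6 and 27.4 RPM in WT, with 103 and 87.2 RPM in kin-3, most of it from 21ur-9719.

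Among loci off chromosome IV with kin-3 reads, 2 pairs share a host gene. 21ur-10492 (II 13247294 to 13247314, minus strand) and 21ur-10687 (13246773 to 13246793, minus strand) both lie antisense to coding exons of F15D4.5. The former stood at 19.4 and 14.2 RPM in WT and at 17.6 and 21.3 RPM in kin-3, and the groups overlapped (pooled ratio of kin-3 to WT 1.15, 95% counting interval 0.621 to 2.06; limma adjusted p = 0.405). The latter stood at 4.47 and 6.57 RPM in WT and at 2.93 and 1.78 RPM in kin-3, and passed the threshold as a fall (log2 difference -0.96, SE 0.26, limma adjusted p = 0.0152). That call rests on 2 kin-3 reads against 12 in WT, and ended with edgeR (adjusted p = 0.221), with TMM rescaling (limma adjusted p = 0.455) and without WT replicate 2 or kin-3 replicate 2 (0.123 and 0.0650); adjusted p spanned 0.0123 to 0.511 over 20 alternatives. 21ur-10824 and 21ur-11898 (III 2295350 to 2295370 and 2295348 to 2295368, minus strand) overlap, shifted by 2 nt, in the sense of the 3′ UTR of Y54F10BM.9. 21ur-10824 stood at 11.9 and 12.04 RPM in WT and at 14.7 and 10.7 RPM in kin-3, a ratio of 1.02 (0.456 to 2.12; limma adjusted p = 0.783), and 21ur-11898 had 1 kin-3 read and none in WT. With TMM rescaling, which moved the median log2 difference of all tested piRNAs from -3.06 to -1.60, 21ur-10824 was called higher (limma adjusted p = 0.0204).

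21ur-1430 (IV 5566428 to 5566448, plus strand) lies within mir-790, in the sense of that microRNA gene. It stood at 11.9 and 7.66 RPM in WT and at 5.87 and 24.9 RPM in kin-3, so that the kin-3 libraries lay on either side of WT (log2 difference 0.33, SE 0.65, limma adjusted p = 0.633). Without kin-3 replicate 1 it was called higher (limma adjusted p = 0.0202), and without replicate 2 the log2 difference was -0.62.

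The remaining loci read in both kin-3 libraries had few reads. 21ur-10895 (V 12386732 to 12386752, minus strand, in no annotated gene) stood at 11.9 and 5.47 RPM in WT and at 5.87 and 3.56 RPM in kin-3 (limma adjusted p = 0.233), with overlapping groups. With the replicate block it passed the threshold as a fall (limma adjusted p = 0.0221). 21ur-12557 (V 17156026 to 17156046, plus strand, antisense to coding sequence and 3′ UTR of F40D4.13) stood at 8.19 and 7.66 RPM in WT and at 5.87 and 1.78 RPM in kin-3. It missed the threshold (limma adjusted p = 0.0550) and passed it with pseudocount 5 (0.0402) and without kin-3 replicate 1 (3.4e-05) or 2 (0.0036). 21ur-6729 (IV 16706014 to 16706034, minus strand) was the one piRNA of the large cluster with reads in both kin-3 libraries, 1 in each, at 0.745 and 0 RPM in WT and at 2.93 and 1.78 RPM in kin-3; it lay under the filter. It overlaps cel-piR-15414, shifted by 1 nt, which had 3 reads in kin-3 replicate 1, none in replicate 2, and 3 and 0 in WT. Reads at these 2 loci, and at 21ur-10824 and 21ur-11898, may have been split between near-identical entries.

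**Figure D4:**
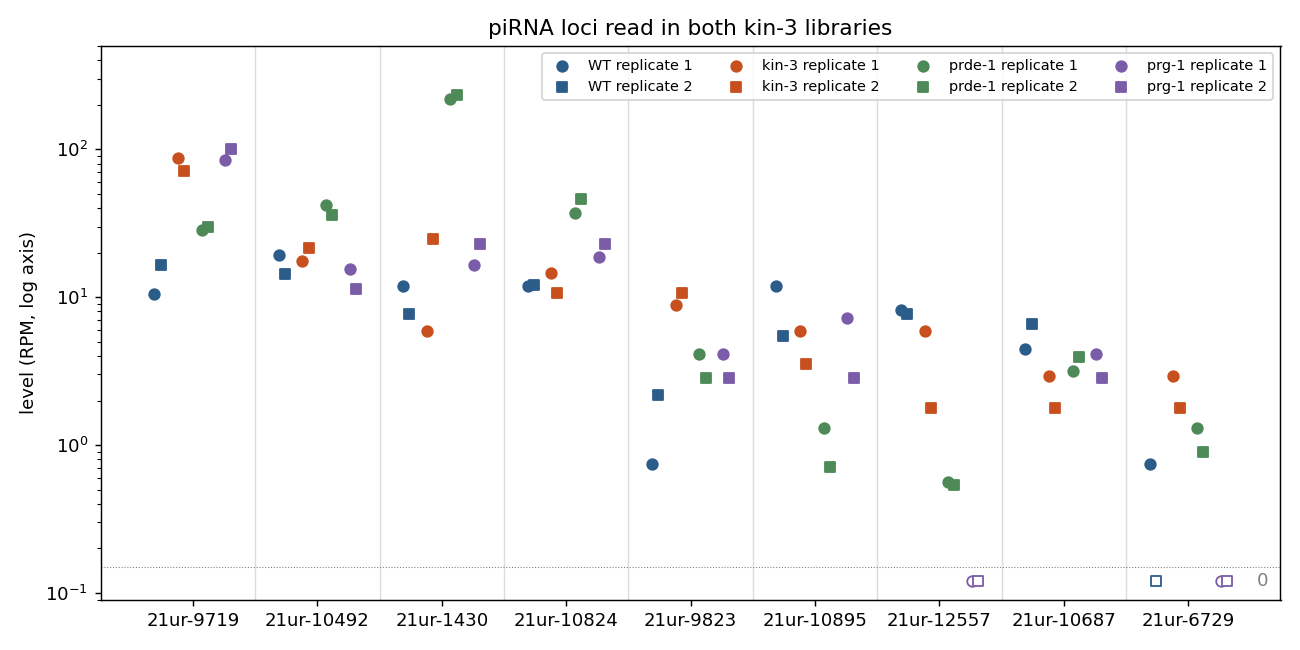
Level of the 9 piRNA loci with reads in both kin-3 libraries (x axis, in order of kin-3 reads) in all 8 libraries (y axis, RPM, log axis); colours mark the genotype, circles replicate 1, squares replicate 2, and open symbols at the bottom a level of 0. 21ur-9719 and 21ur-9823 lie higher in both kin-3 libraries than in both WT libraries, and the kin-3 values of 21ur-10492 and 21ur-10824 lie among the WT values or close to them.

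Of the 63 loci with a kin-3 read, 25 were also read in prde-1 worms, 11 in prg-1 worms and 9 in worms of both genotypes, at very different depths. Of all 9742 listed piRNAs, 127 and 130 were read in the prde-1 libraries and 75 and 46 in the prg-1 libraries. Library totals were 5337646 and 5608712 reads for prde-1 and 969718 and 699884 for prg-1. The loci with most kin-3 reads were among those read in worms of both genotypes. 21ur-9719 stood at 79.6 ± 11.9 RPM in kin-3, at 29.04 ± 0.792 RPM in prde-1 and at 92.3 ± 10.9 RPM in prg-1 (each SD, n = 2), all above the WT mean of 13.4 RPM. 21ur-10492 stood at 19.5 RPM in kin-3, 39.0 RPM in prde-1 and 13.5 RPM in prg-1. 21ur-10824 stood at 12.7, 41.6 and 20.7 RPM in the same order. 21ur-1430 stood at 15.4, 226 and 19.7 RPM, with both prde-1 libraries above every other library. 21ur-12557 differed in another way, with 3.82 RPM in kin-3, 0.548 RPM in prde-1 and no read in prg-1.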

How the data were processed

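Small RNA from whole worms was treated with the polyphosphatase PIR-1, ligated to adaptors and sequenced, per the labels' protocols; cutadapt 1.18 and Bowtie 1.2.1.1 are named in the submitters' processing notes. Their settings, the build and the handling of multiply matching reads are not stated in the labels. The authors deposited 1 table of RPM values, 1 column per library. Positive values were whole multiples of their library's smallest value (tolerance 0.01 reads; 100% of values), which gave the reads. In kin-3 this rests on 36 positive values per library, too few for an independent check of the unit, so edgeR counts there rest on the whole multiples alone. 1e6 divided by that smallest value was taken as the library total. What RNA it covers is not stated, so RPM is a share of an unknown pool, and depth limits kin-3 most.

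Positions matched piRNA genes of WBcel235 (Ensembl release 115) for 9620 of 9742 entries; 122 kept the table's names. Sequences were not used here, so upstream motifs and first bases were not analysed. limma 3.58.1 (R 4.3.3, trended prior) was fitted on log2(RPM + 1) over all 8 libraries, with no covariate beside genotype. edgeR 4.0.16 on recovered reads, with library totals as sizes, was an alternative. Tests are two-sided, and both fits were tested on simulated data, where limma called unchanged piRNAs more often than edgeR. Most simulated piRNAs stayed at the WT level in kin-3, which differs from the data. TMM factors were taken over the 695 tested piRNAs. Intervals and floors (3 reads) cover counting error only, since no molecular identifiers are named.

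piRNAs named are the 10 largest falls with non-overlapping groups and a mean of at least 10 RPM, all rises, the 10 highest WT means, those with at least 4 kin-3 reads or reads in both kin-3 libraries, the highest WT mean of each position group, and 21ur-1; others were chosen after their values were seen. Groups and lists were chosen with earlier results of these data known. The labels do not say that libraries of a group came from separate cultures. Reads of the WT libraries agree within sampling noise over 647 piRNAs (chi-square p = 0.131), so p-values measure a spread that may be only technical. For kin-3 the same check covered only 4 piRNAs (chi-square p = 0.236), too few to show agreement. On the minus strand of the large cluster the kin-3 libraries differed, with 17 against 6 reads.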

Additional observations from a re-analysis of the deposited data

How the results depend on the processing

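The loss of the total and of both clusters held its direction under every alternative run, but the number of called piRNAs followed the filter, the tool and the libraries fitted. Against 680 falls of 695 tested, 2214 of 4878 were called without a filter and 27 of 31 at a mean of at least 10 RPM. With the filter on the WT and kin-3 libraries 1314 of 1377 were called, and 1203 of 1377 with only those fitted. Chosen after seeing the data, edgeR called 161 falls of 1377 with only WT and kin-3 fitted and 448 of 4878 without a filter. Leaving out 1 library gave 375 to 798 falls and 1 to 5 rises. The 375 and 389 falls came without WT replicate 2 and 1, where 398 and 410 piRNAs passed the filter; 4 and 5 rises came without kin-3 replicate 1 and 2, and 1 without WT replicate 1. Against 2 rises, 1 was called at 10 RPM and 1 by edgeR with only WT and kin-3 fitted. The summed level, 1.70% of WT, was 1.099% without 21ur-9719 and 2.86% with TMM rescaling; off chromosome IV the sum was 169% of WT, and 92.6% without 21ur-9719. At 15 to 16 Mb, 0.429% became 0.416% to 0.441% without a WT library. The number of piRNAs with a read, 1.02% of WT, was 1.63% at equal depth, 0.543% at 2 reads or more, and 0.943% to 1.12% without a WT library. With the WT libraries exchanged, 0.840% kept by piRNAs with 1 to 4 reads became 0.510%. For the piRNAs named by rule, 397 of the alternative values kept their side of the threshold, 12 lost it and 7 gained it.

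Replicate numbers are shared between groups, but the labels do not say that they mark a shared batch, so no pairing was assumed. The correlation of deviations between same-numbered WT and kin-3 libraries (0.0241) cannot decide this. Of the 695 piRNAs it covers, 663 had no kin-3 read and so no deviation in kin-3. With the replicate block limma called 680 falls and 2 rises of 695 tested, or 1243 and 3 of 1377 with only WT and kin-3 fitted. edgeR with the replicate block called 125 and 1 of 695. The replicate block brought 21ur-10895 past the threshold as a fall (limma adjusted p = 0.0221, or 0.0324 with only WT and kin-3 fitted) and ended the call of 21ur-10687 with only WT and kin-3 fitted (0.0511); edgeR with the block ended those of 21ur-10687 and 21ur-9823 (adjusted p = 0.465 and 0.157). A fall is hard to call singly at 341001 and 562081 reads: 1 read is worth 2.93 and 1.78 RPM there.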
